A study of Rattus norvegicus with 6 samples.

Results

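Genes that serve as textbook markers of astrocyte function were followed across cultured rat neural cells: Slc1a2, Slc1a3, Glul, Aqp4, Gja1 and S100b. They were taken by their rat Ensembl identifiers, 6 of the 26405 genes counted, and all 6 were among the 18206 genes with enough counts to be tested. The study sequenced messenger RNA from 3 cell types bought as separate products, with 2 libraries of each. The astrocytes and the oligodendrocyte precursor cells (OPCs) had gone through 1 passage, with 8 days of culture before it and 6 days after it. The neurons were kept for 7 days with 0 passages. No genotype, strain, treatment or animal age is stated for any group. Cell type therefore cannot be told apart from product in any comparison, nor from passage and time in culture where neurons are compared. Astrocytes and OPCs had the same passage and time in culture.

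Astrocytes clear the transmitter glutamate from the space around synapses through sodium-driven transporters, turn it into glutamine and hand that back to neurons. They also move water across their membrane through aquaporins, chiefly at the endfeet that wrap blood vessels, and share ions and small molecules through gap junctions. Slc1a2 (ENSRNOG00000005479; GLT, the main transporter of the mature forebrain) and Slc1a3 (ENSRNOG00000016163; GLAST, prominent in radial glia and young astrocytes) take up glutamate. Glul (ENSRNOG00000049560) encodes glutamine synthetase, and Aqp4 (ENSRNOG00000016043) the main water channel of the brain. Gja1 (ENSRNOG00000000805) encodes the major astrocyte connexin, and S100b (ENSRNOG00000001295) a calcium-binding protein made by astrocytes and by part of the oligodendrocyte lineage.

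Total counts ranged from 22265917 to 102861667 per library. Levels are given in CPM, the count scaled to library size with TMM factors, and 3 counts corresponded to between 0.0328 and 0.115 CPM. The lowest count of any of the genes in any library was 22, so every gene was detected in every library. The astrocyte replicates lay within 1.56-fold of each other for every gene, whereas neuron replicate 1 stood apart from neuron replicate 2 for all 6. Each neuron fold change is therefore given with both neuron libraries and with each left out. With 1 neuron library left, its spread is taken from the replicates of the other cell types. A p-value from such a fit does not measure how neurons vary. The deposited table does not pair identifiers with gene names, so the cell type labels could be checked against these 6 genes only. Gene length was not available, and levels are compared between libraries and not between genes.

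The 6 genes matched 11 windows in the RefSeq promoter table (build GRCr8), each running from 250 bases before to 50 bases after an annotated start. The first-listed windows of Slc1a2, which was low in astrocytes, and of Aqp4, Gja1 and S100b, which were high in astrocytes and low in OPCs, are printed here 5′ to 3′ so that the opposite patterns can be set beside the sequence. Capitals mark matches, on either strand, to 5 motifs chosen after the sequences had been seen.
Slc1a2, chr3:109459859-109460158, plus strand: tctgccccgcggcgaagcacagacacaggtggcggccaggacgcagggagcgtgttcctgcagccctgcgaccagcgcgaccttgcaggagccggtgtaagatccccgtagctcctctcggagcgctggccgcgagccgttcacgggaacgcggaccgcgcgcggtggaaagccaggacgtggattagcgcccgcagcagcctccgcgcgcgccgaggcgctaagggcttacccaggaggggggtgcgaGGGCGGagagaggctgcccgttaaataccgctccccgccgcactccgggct
Aqp4, chr18:6798793-6799092, minus strand: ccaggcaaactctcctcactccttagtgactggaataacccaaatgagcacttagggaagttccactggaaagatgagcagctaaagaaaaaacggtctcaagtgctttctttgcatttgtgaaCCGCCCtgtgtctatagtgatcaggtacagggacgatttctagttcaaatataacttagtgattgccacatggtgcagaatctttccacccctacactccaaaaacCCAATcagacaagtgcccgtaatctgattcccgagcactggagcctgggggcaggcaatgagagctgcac
Gja1, chr20:36302314-36302613, plus strand: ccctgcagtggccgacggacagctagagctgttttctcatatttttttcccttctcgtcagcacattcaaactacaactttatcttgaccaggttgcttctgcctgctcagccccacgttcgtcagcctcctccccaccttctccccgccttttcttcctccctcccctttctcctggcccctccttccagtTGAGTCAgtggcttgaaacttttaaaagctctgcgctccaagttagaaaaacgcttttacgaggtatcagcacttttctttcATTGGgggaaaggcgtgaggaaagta
S100b, chr20:12381032-12381331, minus strand: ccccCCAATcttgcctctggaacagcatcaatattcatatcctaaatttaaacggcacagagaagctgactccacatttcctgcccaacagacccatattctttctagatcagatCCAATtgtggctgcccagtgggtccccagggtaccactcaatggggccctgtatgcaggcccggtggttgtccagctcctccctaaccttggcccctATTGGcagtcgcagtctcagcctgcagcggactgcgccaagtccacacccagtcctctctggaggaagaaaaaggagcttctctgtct
The Slc1a2 window was 71.0% G or C and held 39 CpG dinucleotides, against medians of 51.7% and 7 over 33465 windows of the same length. The windows of Aqp4, Gja1 and S100b had a G or C share of 47.3%, 50.3% and 54.0% and held 5, 10 and 5 CpG dinucleotides. A CCAAT box, searched as CCAAT, occurred in each of these 3 windows and not in that of Slc1a2. The matches lay 20 bases before the start in Aqp4, 246, 135 and 38 before it in S100b, and 24 after it in Gja1. A CCAAT match anywhere in the window occurred in 37.5% of all windows. A GC box, searched as GGGCGG, occurred in the Slc1a2 and Aqp4 windows and in 33.1% of all windows. An AP-1 element, searched as TGAGTCA, occurred 58 bases before the start in Gja1 and in 4.63% of all windows. The TATA box (TATAAA, 14.2% of all windows) and a STAT element (TTCNNNGAA, 8.87%) matched in none of the 4. Of the windows not printed, the second Slc1a2 window was 46.3% G or C with 2 CpG dinucleotides and no match, and the second Aqp4 window held no CCAAT box. The windows of Glul, also higher in astrocytes than in OPCs, were 54.7% and 65.7% G or C, held 15 and 17 CpG dinucleotides, and each had both a CCAAT box and a GC box. The 3 Slc1a3 windows, which overlap one another, held no match. The motifs do not overlap one another in these windows. These matches describe letters in a window and say nothing of whether a factor binds there.

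Slc1a2 was the gene of the set that was lower in astrocytes than in both other cell types. Its level was 0.723 and 0.976 CPM in the astrocyte replicates, from 59 and 41 counts. It was 61.0 and 5.86 CPM in neuron replicates 1 and 2, and 21.7 and 6.95 CPM in OPC replicates 1 and 2. Every neuron and OPC library lay above both astrocyte libraries, and the neuron and OPC ranges overlapped. The means were 0.850 ± 0.179 CPM in astrocytes, 33.4 ± 39.0 CPM in neurons and 14.3 ± 10.5 CPM in OPCs (SD, n = 2 each). The log2 fold change of neurons against astrocytes was 5.30 ± 1.19 (SE; edgeR adjusted p = 0.0151), and it was 2.79 without neuron replicate 1 (edgeR adjusted p = 0.0219) and 6.17 without neuron replicate 2 (edgeR adjusted p = 0.00162). For OPCs against astrocytes it was 4.08 ± 1.13 (SE; edgeR adjusted p = 0.0372), 3.04 without OPC replicate 1 and 4.76 without OPC replicate 2. A fit of the 4 astrocyte and OPC libraries alone gave 4.08 ± 0.64 (SE; edgeR adjusted p = 0.00369). The mirror of the rule for enrichment, a level more than 2-fold lower than in both other cell types with the larger p adjusted over all genes, was met in astrocytes by 5.51% of all genes tested and narrowly missed by Slc1a2 (edgeR adjusted p = 0.0553). Slc1a2 met that mirror rule by DESeq2 (adjusted p = 0.000209), in fits of 4 libraries (edgeR adjusted p = 0.0297) and after thinning (0.0459). It missed the rule with RLE, upper-quartile or total-count scaling, with either other filter, by limma-voom and with the replicate block. It also missed the rule without any single astrocyte or OPC library. The rule was met without either neuron library, in fits where 1 library stands for the neurons. The call against neurons was lost without astrocyte replicate 1 (edgeR adjusted p = 0.108) or astrocyte replicate 2 (0.0931), with no low-count filter (0.0862) and by limma-voom (0.0552). The call against OPCs was lost without either astrocyte library (edgeR adjusted p = 0.195 and 0.157) or either OPC library, with no low-count filter (0.168), at a mean of at least 5 CPM (0.0502) and by limma-voom (0.141).

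Slc1a3, the other glutamate transporter, was at similar levels in astrocytes and OPCs and was not called between them. It stood at 267 and 416 CPM in astrocytes, at 451 and 242 CPM in OPCs, and at 567 and 21.2 CPM in neuron replicates 1 and 2. The astrocyte and OPC ranges overlapped, neuron replicate 1 was the highest of the 6 libraries and neuron replicate 2 the lowest. The log2 fold change of OPCs against astrocytes was 0.02 ± 1.16 (SE; edgeR adjusted p = 0.993). Its 95% interval, from -2.73 to 2.77, leaves room for a several-fold difference either way. That width takes in the gap between the neuron replicates, because all 6 libraries share 1 estimate of spread. In a fit of the 4 astrocyte and OPC libraries alone the value was 0.02 ± 0.42 (SE; edgeR adjusted p = 0.977). For neurons against astrocytes the log2 fold change was -0.21 ± 1.16 (SE; edgeR adjusted p = 0.910). That value was -4.01 without neuron replicate 1 (edgeR adjusted p = 0.00430) and 0.73 without neuron replicate 2 (edgeR adjusted p = 0.327), so its sign followed the neuron library that was kept.

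**Figure D1:**
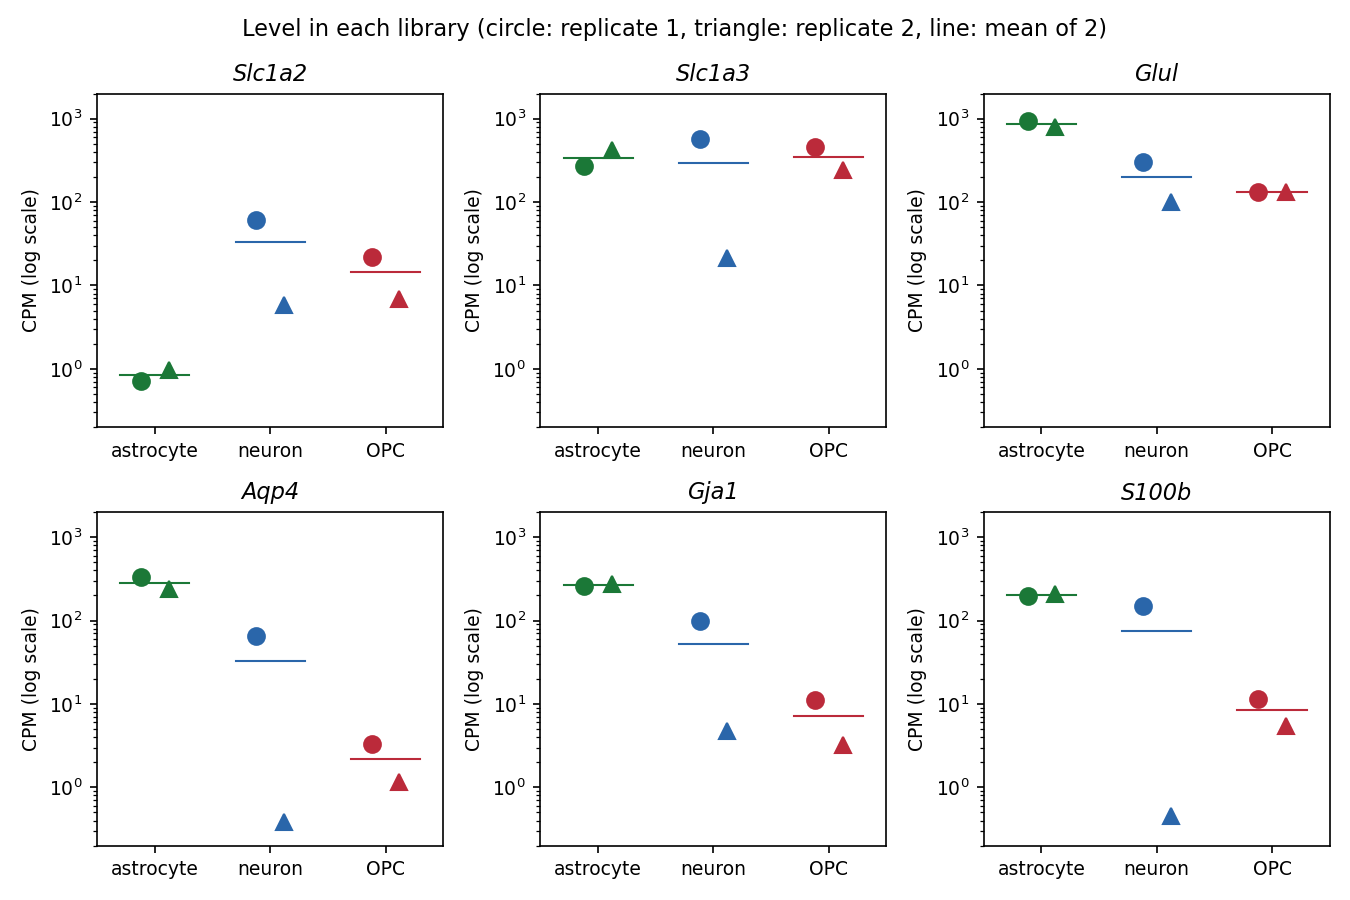
Level of each gene in each library in CPM on a log axis, by cell type. Circles are replicate 1, triangles replicate 2 and lines the mean of 2; Slc1a2 is lowest in the astrocyte libraries, Glul, Aqp4, Gja1 and S100b are highest there, and the neuron replicates lie far apart.

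The balance of the transporters was also read within each library, where scaling plays no part. Slc1a2 made up 0.270% of the counts of both transporters in astrocyte replicate 1 (0.209 to 0.348, 95% Wilson interval). In the second astrocyte library it was 0.234% (0.173 to 0.318). The share was 9.70% in neuron replicate 1 (9.46 to 9.95) and 21.6% in neuron replicate 2 (19.7 to 23.7). In OPC replicates 1 and 2 it was 4.60% (4.24 to 4.98) and 2.79% (2.50 to 3.10). The intervals cover counting error only. The shares of the 3 cell types did not overlap, with neurons highest and astrocytes lowest in both replicates. The levels of each transporter, in contrast, overlapped between neurons and OPCs. In neuron replicate 2 the share came with a low Slc1a3 level, 21.2 CPM. Its Slc1a2 level, 5.86 CPM, was below both OPC libraries. No test of the shares was run. Because the genes differ in length, the share is compared between libraries and is not a ratio of molecules.

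**Figure D2:**
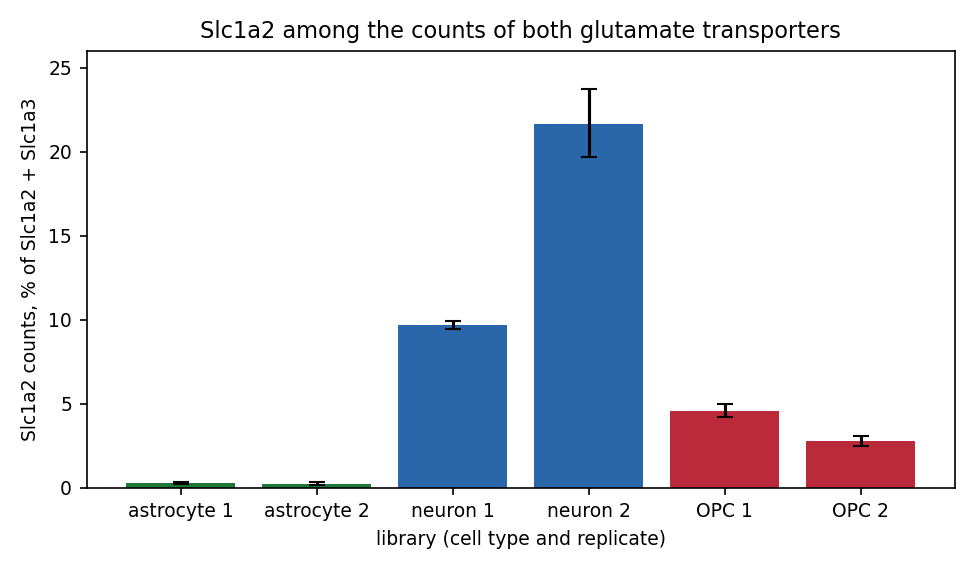
Counts of Slc1a2 as a percentage of the counts of Slc1a2 and Slc1a3 together, in each library. Error bars are 95% Wilson intervals of counting error; the astrocyte libraries lie at 0.270% and 0.234% and the neuron libraries at 9.70% and 21.6%.

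Glul, which encodes the enzyme that turns glutamate into glutamine, was higher in astrocytes than in both other cell types. It stood at 943 and 783 CPM in astrocytes, 303 and 100 CPM in neuron replicates 1 and 2, and 131 and 133 CPM in OPCs. Both astrocyte libraries lay above every other library, and the OPC values fell inside the neuron range. Glul was lower in neurons than in astrocytes, with a log2 difference of -2.10 ± 0.56 (SE; edgeR adjusted p = 0.0284). It was also lower in OPCs, with -2.71 ± 0.57 (SE; edgeR adjusted p = 0.0142). In a fit of the 4 astrocyte and OPC libraries alone the OPC value was -2.71 ± 0.34 (SE; edgeR adjusted p = 0.00138). The neuron value was -3.10 without neuron replicate 1 (edgeR adjusted p = 0.00281) and -1.51 without neuron replicate 2 (0.0354). With all libraries Glul was the only gene of the set to meet the rule for enrichment in astrocytes, a fold above 2 against both others and an adjusted p, from the larger of the pairwise p-values, of 0.0487. Of all genes tested, 8.90% met that rule. Glul no longer met it with RLE, upper-quartile or total-count scaling (edgeR adjusted p = 0.0589, 0.0640 and 0.120), at a mean of at least 5 CPM (0.0599), after thinning (0.0502) or in fits of 4 libraries (0.0876). It also missed it without any single library other than neuron replicate 1, with edgeR adjusted p from 0.0529 to 0.184. The call against neurons was lost without either astrocyte library (edgeR adjusted p = 0.107 and 0.0669), without either OPC library (0.0536 and 0.0589), with total counts alone as the scale (0.0742) and in a fit of the 4 astrocyte and neuron libraries (0.0595). The call against OPCs was lost without astrocyte replicate 1 (edgeR adjusted p = 0.0551) and without OPC replicate 1 or 2 (0.0925 and 0.100).

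Aqp4, the water channel gene, showed the widest gap between astrocytes and OPCs among these genes. Its level was 328 and 239 CPM in astrocytes against 3.27 and 1.15 CPM in OPCs, from 85 and 53 counts. In neurons it was 64.6 CPM in replicate 1 and 0.381 CPM in replicate 2, where 22 counts gave an exact 95% Poisson interval of 0.239 to 0.576. Both astrocyte libraries lay above all others, and the OPC libraries lay between the 2 neuron libraries. The log2 difference of OPCs from astrocytes was -7.02 ± 2.02 (SE; edgeR adjusted p = 0.0424), a 130-fold difference. In a fit of the 4 astrocyte and OPC libraries alone it was -7.03 ± 0.63 (SE; edgeR adjusted p = 0.000424). It was -7.95 without OPC replicate 1 (edgeR adjusted p = 0.156) and -6.37 without OPC replicate 2 (0.212). The call was also lost without astrocyte replicates 1 and 2 (edgeR adjusted p = 0.125 and 0.100), with no low-count filter (0.266), at a mean of at least 5 CPM (0.0539) and by limma-voom (0.0577). Neurons differed from astrocytes by -3.12 ± 1.67 (SE; edgeR adjusted p = 0.195) with both neuron libraries. The value was -9.53 without neuron replicate 1 (edgeR adjusted p = 0.000884) and -2.13 without neuron replicate 2 (edgeR adjusted p = 0.0533).

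Gja1, the gap junction gene, had nearly equal levels in the astrocyte replicates, 262 and 271 CPM. It stood at 99.4 and 4.74 CPM in neuron replicates 1 and 2 and at 11 and 3.23 CPM in OPC replicates 1 and 2. The astrocyte libraries were the highest, and neuron replicate 2 fell within the OPC range. The log2 difference of OPCs from astrocytes was -5.24 ± 1.38 (SE; edgeR adjusted p = 0.0309), or 37.7-fold. It was -5.24 ± 0.64 (SE; edgeR adjusted p = 0.00133) in a fit of the 4 astrocyte and OPC libraries alone. With OPC replicate 1 left out it was -6.37, and with replicate 2 left out -4.52. Leaving out a single astrocyte or OPC library ended that call, with edgeR adjusted p between 0.0901 and 0.168, as did a fit with no low-count filter (0.206). The value for neurons against astrocytes was -2.36 ± 1.20 (SE; edgeR adjusted p = 0.179), then -5.81 without neuron replicate 1 (edgeR adjusted p = 0.00375) and -1.42 without neuron replicate 2 (edgeR adjusted p = 0.178).

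S100b, the calcium-binding protein gene, stood at 196 and 208 CPM in astrocytes and at 11.4 and 5.46 CPM in OPC replicates 1 and 2. Neuron replicate 1 reached 148 CPM, close to the astrocytes, while neuron replicate 2 was at 0.450 CPM from 26 counts. The 2 neuron libraries thus bracketed the OPC libraries. The OPC value was -4.59 ± 1.91 against astrocytes (SE; edgeR adjusted p = 0.130), and the 95% interval of the fold change ran from -9.09 to -0.08. It passed the threshold without neuron replicate 1 (edgeR adjusted p = 0.000558), without neuron replicate 2 (0.000640) and in a fit of the 4 astrocyte and OPC libraries alone (0.000547), with log2 fold changes of -4.59 in each. For neurons against astrocytes the log2 fold change was -1.44 ± 1.67 (SE; edgeR adjusted p = 0.546), and it was -8.80 without neuron replicate 1 (edgeR adjusted p = 0.000546) and -0.45 without neuron replicate 2 (edgeR adjusted p = 0.537).

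Read as a set, 2 of the 6 genes were called between neurons and astrocytes, Slc1a2 higher in neurons and Glul higher in astrocytes, where 30.4% of all genes tested were called, 14.5% higher in neurons and 15.9% higher in astrocytes. The groups did not overlap for 5 of the 6, against 68.8% of all genes. Between OPCs and astrocytes 4 of the 6 were called, Slc1a2 higher in OPCs and Glul, Aqp4 and Gja1 higher in astrocytes, where 25.5% of all genes were called, 10.6% higher in OPCs and 14.9% higher in astrocytes. There the groups did not overlap for 5 of the 6 genes, against 65.5% of all genes. The median log2 fold change of the 6 genes was -3.65 for OPCs against astrocytes and -1.77 for neurons against astrocytes, beside medians over all genes of -0.04 and -0.06. Leaving out neuron replicate 1 moved the neuron median to -4.91, and leaving out replicate 2 moved it to -0.93. These comparisons share the astrocyte libraries.

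No gene of the set passed the edgeR test between neurons and OPCs with all libraries. The edgeR test called 0 of 6, where it called 12.4% of all genes tested. Of the set, 0 of 6 had an unadjusted edgeR p under 0.05 (28.6% of all genes did). DESeq2 called 1 (Gja1), where it called 4031 of 18206 genes, and limma-voom called 0, where it called 2177. The groups overlapped for all 6 genes, while they did not overlap for 57.1% of all genes. The 95% intervals of the log2 fold changes were wide, from -1.12 to 3.57 for Slc1a2, -0.66 to 1.88 for Glul and -0.25 to 8.05 for Aqp4. The sign rested on which neuron library was kept. For S100b the log2 fold change of neurons against OPCs was -4.22 without neuron replicate 1 (edgeR adjusted p = 0.00829) and 4.14 without neuron replicate 2 (edgeR adjusted p = 0.00453). For Aqp4 the values were -2.50 (edgeR adjusted p = 0.0734) and 4.90 (0.00557), and for Gja1 they were -0.57 (0.627) and 3.82 (0.0154). Slc1a3 was at -4.03 without neuron replicate 1 (edgeR adjusted p = 0.0106) and at 0.71 without neuron replicate 2 (0.396). In the same order Slc1a2 was at -1.29 (edgeR adjusted p = 0.305) and 2.09 (0.0784), and Glul at -0.40 (0.547) and 1.19 (0.0811).

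**Figure D3:**
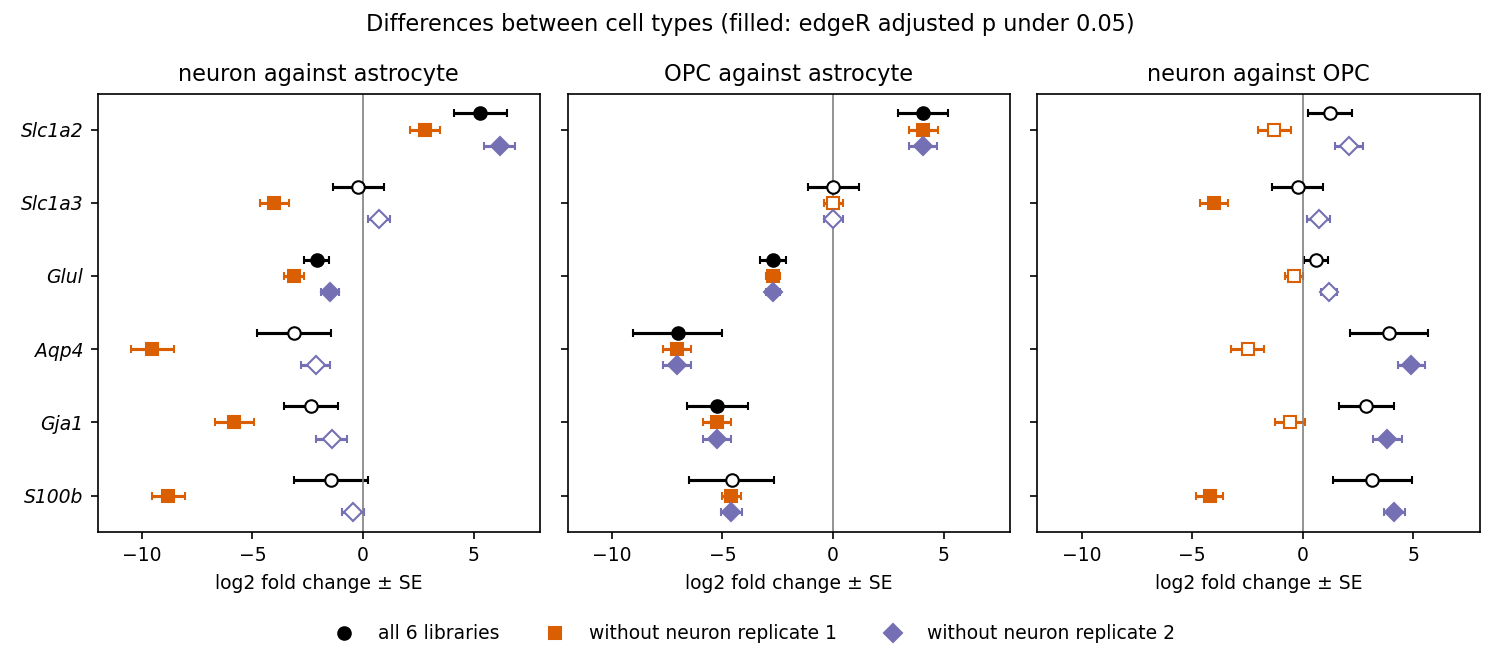
Log2 fold change ± SE of each gene in each comparison, with all 6 libraries (circles), without neuron replicate 1 (squares) and without neuron replicate 2 (diamonds). Filled symbols have an edgeR adjusted p under 0.05; the OPC values against astrocytes stay in place while the neuron values move with the library left out, for S100b against OPCs from -4.22 to 4.14.

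Without neuron replicate 1 all 6 genes were called between neurons and astrocytes, with Slc1a2 higher in neurons and the other 5 higher in astrocytes, where 32.9% of all genes were called. The lone neuron library is then assumed to vary like the replicates of the other cell types. Glul, Aqp4, Gja1 and S100b met the rule for enrichment in astrocytes in that fit, as did 11.2% of all genes. Without neuron replicate 2 the genes called between neurons and astrocytes were Slc1a2 and Glul, where 28.2% of all genes were called, and 0 of the 6 met the enrichment rule, which 9.07% of all genes met.

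For S100b and Aqp4 the difference between the neuron replicates was among the widest of any gene. S100b was 330-fold higher in replicate 1 than in replicate 2 and ranked 1 of 18206 genes by this log2 difference, and Aqp4 was 170-fold higher and ranked 3. Slc1a3 was 26.7-fold higher, Gja1 21.0-fold and Slc1a2 10.4-fold, whereas Glul was 3.02-fold higher. In all, 5 of the 6 genes were more than 8-fold higher in neuron replicate 1, as were 2.49% of all genes tested. Set against the astrocyte mean, neuron replicate 1 reached 22.8% for Aqp4, 35.1% for Glul, 37.3% for Gja1, 73.4% for S100b and 166% for Slc1a3. For Slc1a2 it was 71.7-fold the astrocyte mean. Neuron replicate 2 stood at 0.134% of the astrocyte mean for Aqp4, 0.223% for S100b and 1.78% for Gja1, and at 6.22% for Slc1a3 and 11.6% for Glul. Its Slc1a2 level was 6.90-fold that astrocyte mean. In bulk RNA, fewer cells of a type and less RNA per cell cannot be told apart, and the part of other cells in neuron replicate 1 was not tested.

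The OPC replicates differed in the same direction by smaller amounts. Gja1 was 3.41-fold higher in OPC replicate 1 than in replicate 2, Slc1a2 3.13-fold, Aqp4 2.85-fold, S100b 2.09-fold and Slc1a3 1.86-fold, while Glul was at 0.985 of the replicate 2 level. More than 2-fold higher in OPC replicate 1 were 4 of the 6 genes and 8.47% of all genes tested. In astrocytes 0 of the 6 exceeded a 2-fold difference in either direction, as 14.9% of all genes did. OPC replicate 1 was also the shallowest library, and thinning all libraries to its total left the genes called between OPCs and astrocytes as they were.

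**Figure D4:**
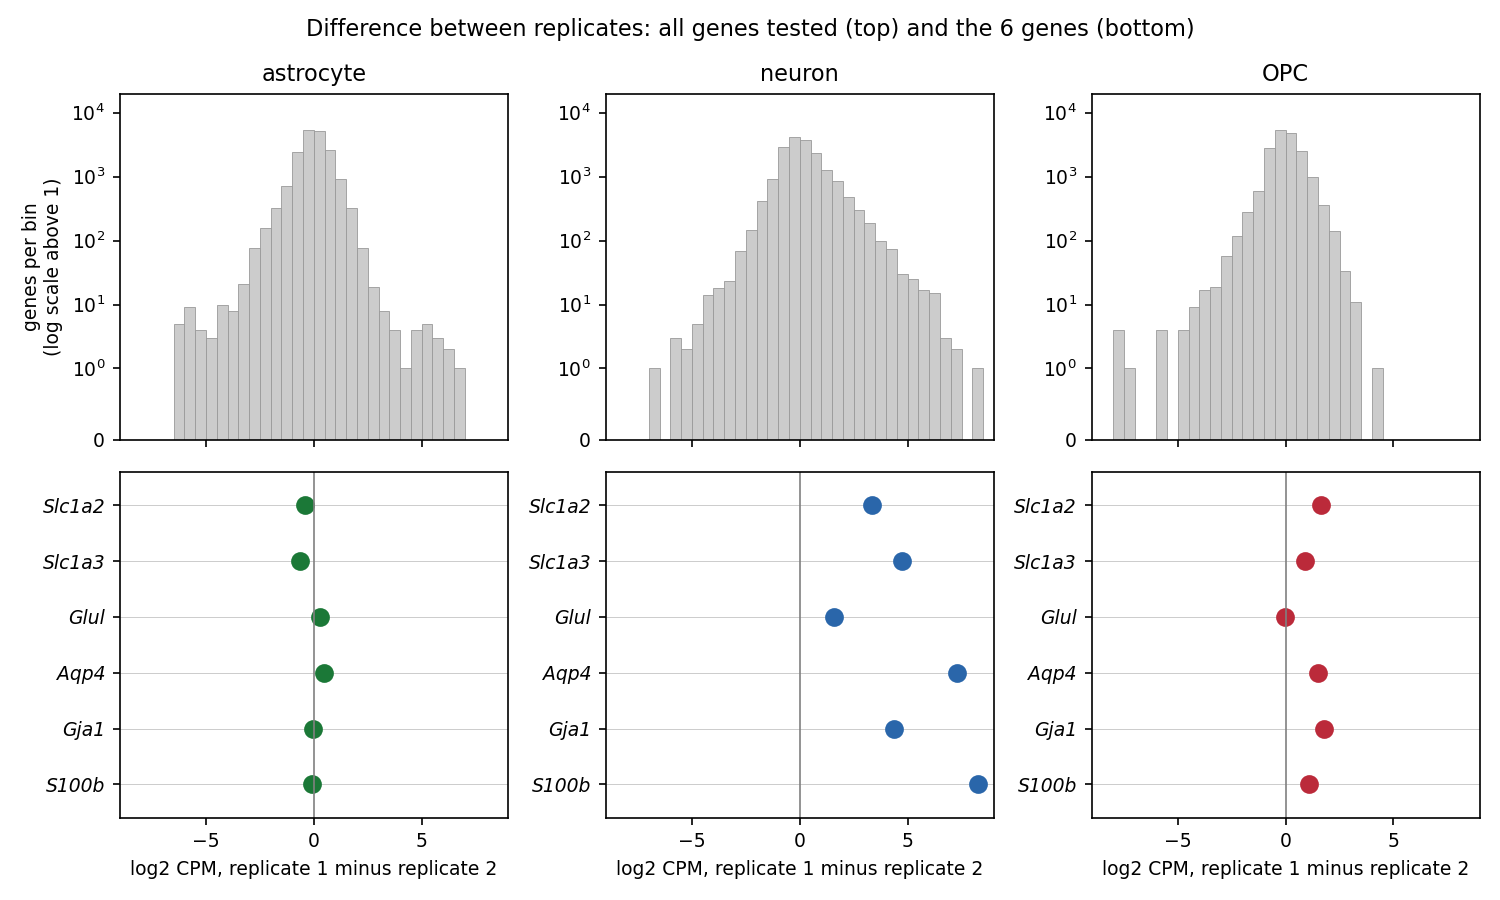
Log2 CPM of replicate 1 minus replicate 2 within each cell type: the number of all 18206 tested genes per bin on top, and the 6 genes below. In neurons all 6 lie to the right of 0 and S100b has the highest value of any gene; in astrocytes all 6 lie within 1 log2 unit of 0.

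The genes fell into different patterns over the 6 libraries. Likeness was measured as the root mean square difference of log2 CPM after centring each gene on its mean, a measure with no test. Aqp4 and S100b were the closest pair, at 1.07, followed by Aqp4 and Gja1 at 1.26 and Gja1 and S100b at 1.35. Slc1a2 lay farthest from Aqp4, at 5.13, and 2.54 from Slc1a3, its nearest gene of the set. Likeness was also ranked among 12573 other genes with a mean of at least 10 CPM in some cell type. Aqp4 was the 5th closest to S100b and S100b the 9th closest to Aqp4. The nearest gene of the set ranked 213 for Gja1, 2216 for Slc1a3, 7317 for Glul and 8304 for Slc1a2. The wide gap between the neuron replicates in Aqp4 and S100b enters this measure, with 22 counts of Aqp4 and 26 of S100b in neuron replicate 2. The gene most like Glul was ENSRNOG00000017941, at 0.15, and the gene most like Slc1a2 was ENSRNOG00000028992, at 0.59. The latter stood at 3.17 and 1.52 CPM in astrocytes, 164 and 18.4 CPM in neurons and 109 and 33.5 CPM in OPCs. Together the 6 genes took 0.158% and 0.160% of the counts in astrocytes, 0.150% and 0.0138% in neurons and 0.0735% and 0.0402% in OPCs.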

How the data were processed

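Per the labels' protocols, total RNA for 6 libraries was column-purified and sequenced on an Illumina instrument. The deposited file gave raw counts per Ensembl rat gene, and 0 columns were left out; the sources used here name no aligner, counting tool or genome build and do not say whether strand was used. Reads of overlapping genes or near-identical copies may therefore be shared. No 2 libraries were identical. Nothing states that replicates were separate cultures, and the p-values reflect only how far these samples spread, which may be technical.

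The symbols of the 6 genes came with the choice of genes, and promoter windows were matched by symbol. Other genes could not be named, so lists of related pathway genes and cell type markers were not run. The genes, lists and tests were chosen with earlier results of these data known. The rule for named genes took all 6, then for each the tested gene of nearest pattern, with at most 2 identifiers printed.

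edgeR 4.0.16 in R 4.3.3 was fitted to all genes passing filterByExpr (minimum count 10, total 15), with TMM factors from 0.794 to 1.21, 1 coefficient per cell type, robust quasi-likelihood F tests, 3 residual degrees of freedom and Benjamini-Hochberg adjustment over all 18206 genes at 0.05. SEs were derived from the F statistic. Likeness and the ranks of replicate differences used a prior count of 2. Alternatives were other scalings, DESeq2 1.42.0, limma-voom 3.58.1, other filters, fits of 4 libraries, the replicate block, thinning and leaving out each library. The steps were run on simulated data in which each gene had the same spread in all cell types. That setting does not cover the wider spread of the neuron replicates seen here.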

Additional observations from a re-analysis of the deposited data

How the results depend on the processing

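Of 288 fold changes of the 6 genes under alternatives, 227 kept their direction and their side of the threshold, 34 lost their call, 12 gained one and 15 reversed. Between neurons and astrocytes the main fit called 5532 genes over the whole table. Total counts alone called 5945, limma-voom 6003, no low-count filter 5610 and a fit of only the 4 libraries compared 4643. Of the set, 2 genes were called in the main fit and 1 in each of those settings. Leaving out 1 library gave 0 to 6. Between OPCs and astrocytes the main fit called 4649 genes over the whole table and 4 of the set. Over the whole table limma-voom called 4661, a mean of at least 5 CPM 3133, the replicate block 4831 and no low-count filter 4714. Of the set these called 2, 2, 2 and 1. A fit of only the 4 libraries compared called 5863 genes, and 5 of the set. Leaving out 1 library gave 0 to 5. Between neurons and OPCs 0 were called, 1 by DESeq2, and 0 to 3 on leaving out 1 library. The 1 gene enriched in astrocytes, Glul, became 0 with RLE, upper-quartile or total-count scaling, a mean of at least 5 CPM, fits of only 4 libraries or thinning, and 0 to 4 genes on leaving out 1 library.

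The reversals were all of differences not called with all libraries. Slc1a3 for OPCs against astrocytes was -0.0076 with limma-voom, -0.026 at a mean of at least 5 CPM, -0.33 with the replicate block, -0.14 without astrocyte replicate 1 and -0.49 without OPC replicate 1 (range on leaving out 1 library -0.49 to 0.49). Slc1a3 for neurons against astrocytes was 0.34 with total counts alone, 0.15 without astrocyte replicate 2 and 0.73 without neuron replicate 2 (range -4.01 to 0.73). For neurons against OPCs it was 0.71 without neuron replicate 2 and 0.28 without OPC replicate 1 (range -4.03 to 0.71). Without neuron replicate 1 the neuron against OPC values were -1.29 for Slc1a2, -0.40 for Glul, -2.50 for Aqp4, -0.57 for Gja1 and -4.22 for S100b. The highest values of these genes on leaving out another library were 2.27, 1.19, 4.90, 4.01 and 4.14. The cause was not tested.

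The replicate block changed 2 calls, Slc1a2 and Aqp4 for OPCs against astrocytes (edgeR adjusted p = 0.0592 and 0.0560). Same-numbered libraries had correlated deviations of 0.147, 0.292 and 0.162, but the labels do not say what a number marks. On leaving out 1 library, the genes called over the whole table for neurons against astrocytes were 3306 to 5996 (5532 with all libraries). For OPCs against astrocytes they were 2182 to 5831 (4649). For neurons against OPCs they were 116 to 2759 (2260, and 4031 by DESeq2). Astrocyte-enriched genes numbered 716 to 2034 (1620, and 1039 at a mean of at least 5 CPM). Total counts alone shifted the median over all genes, on the log2 scale, to 0.40 for neurons and 0.39 for OPCs against astrocytes. With it 66.2% of the calls were higher in neurons and 58.6% higher in OPCs, against 47.7% and 41.6%. Levels near 0.4 CPM rest on 22 to 26 counts.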
